A study of Phlebiopsis gigantea with 8 samples.

Results

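The data described here compare mycelium of *Phlebiopsis gigantea*, a white-rot basidiomycete that colonises freshly felled conifers, grown on acetone-extracted loblolly pine wood (ELP) with mycelium grown on glucose (Glc). The comparison takes 5 of the 8 libraries of the study, 3 of ELP and 2 of Glc, and all 11891 gene models with values. The libraries were chosen by medium alone, so no measured value entered the choice. All 5 cultures held 250 ml of basal salts and were harvested after 5 days, and each gave 1 library of poly-A RNA. In ELP the carbon source was freshly harvested, ground pine that had been freed of its resinous extractives by long Soxhlet extraction with acetone and then dried, and in Glc it was glucose alone. The media thus differed in the sugar offered and in the presence of solid wood at the same time, and the parts of these 2 differences cannot be told apart. Nor can more hyphae that transcribe a gene be told apart from more transcript per hypha, since each library is the RNA of a whole culture.

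Softwood cell walls are built of cellulose fibrils that are coated with glucomannan and xylan and embedded in lignin. Cellobiohydrolases release cellobiose from the ends of cellulose chains, endoglucanases cut within the chains, and beta-glucosidases split cellobiose into glucose. Lytic polysaccharide monooxygenases (LPMOs, listed in the deposited annotation as GH61) cut crystalline cellulose by oxidation. White-rot fungi also secrete peroxidases that attack lignin, and in many fungi genes for wall-degrading enzymes are transcribed at a low level where glucose is plentiful.

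Values are the authors' RPKM, reads scaled to gene length and to the size of the library, and are given below in the order ELP 1, ELP 2, ELP 3 and Glc 1, Glc 2. A change is the log2 fold change of ELP over Glc on the log2(RPKM + 0.5) scale, in which positive values are higher in ELP. The sources used here state no read totals, but the spacing of low values showed that 1 RPKM in a gene of 1 kb stood for about 5.95, 7.19 and 6.97 reads in the ELP libraries and 7.87 and 14 reads in Glc 1 and Glc 2. Summed RPKM ran from 741010 to 890850, and 494 to 656 models were listed at 0 in a library. The median RPKM of ELP libraries lay between 22.6 and 23.7, above those of Glc 1 (12.3) and Glc 2 (16.3). The 10 most abundant transcripts took 9.01 to 12.4% of the summed RPKM in ELP and 15.1 and 22.6% in Glc. The Glc libraries stood apart from each other. Over 2-fold differences separated them in 35.1% of the genes tested, against 2.36 to 8.01% for pairs of ELP libraries, and each Glc library is therefore given singly throughout.

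In limma on log2(RPKM + 0.5), 1906 of 10994 genes tested were higher in ELP (17.3%) and 249 were lower (2.26%) at an adjusted p under 0.05. The median change was 1.58 among the higher genes and -1.96 among the lower genes. Among the higher genes 484 changed over 4-fold and 51 over 16-fold, against 118 and 28 of the lower genes. In every gene called, the ELP libraries lay wholly above or wholly below both Glc libraries. Without a test, all ELP libraries lay above both Glc libraries in 5647 genes (51.4%) and below both in 991 (9.01%).

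The balance of higher and lower genes depended on the scaling. The median change over all genes was 0.60 with the RPKM as deposited and -0.03 after the libraries were rescaled by the median of gene ratios, with a median shift per gene of 0.65. After this rescaling 147 genes were higher (1.34%) and 251 lower (2.28%), so the share of higher genes among those called went from 88.4% to 36.9%. All 147 were among the 1906, and 202 of the 251 were among the 249. A second adjusted p, after rescaling, is therefore printed beside that of each called gene named below. A gene named below without a second adjusted p was not called. Calls also depended on single libraries. Without ELP 1, ELP 2 or ELP 3 limma called no gene, including those named below, with 2575, 2381 and 3049 genes higher and 386, 393 and 382 lower at an unadjusted p under 0.05. Without Glc 1 it called 2923 genes higher and 870 lower, and without Glc 2 it called 5085 and 1094. Where all 8 libraries were fitted with a weight for each medium (array weights), 53 genes were higher and 18 lower, and 52 and 18 of them passed all 3 fits.

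**Figure D1:**
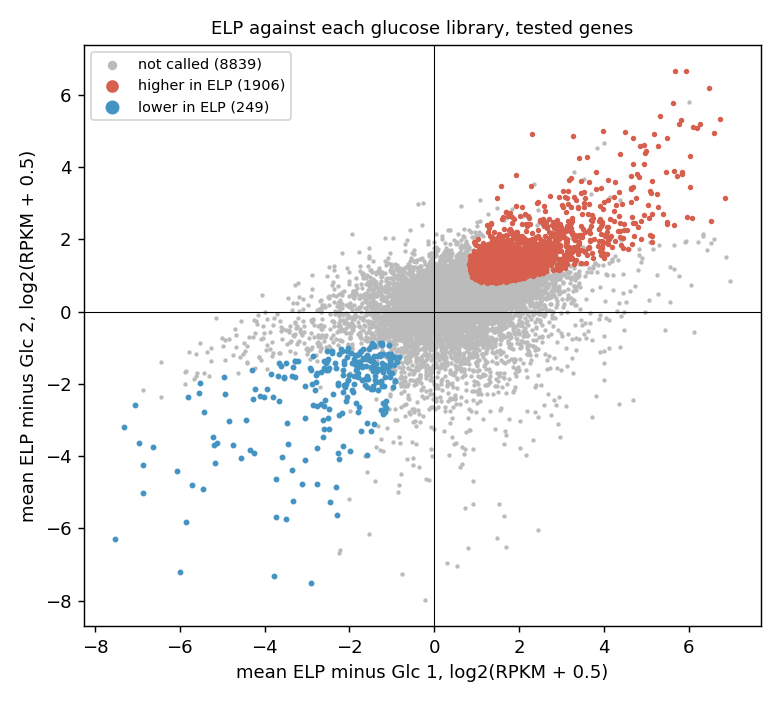
Mean log2(RPKM + 0.5) of the 3 ELP libraries minus that of Glc 1 (x axis) and minus that of Glc 2 (y axis) for the 10994 genes tested. The 1906 genes called higher (red) and the 249 called lower (blue) lie where both differences have the same sign, and most genes that were not called (grey) lie above 0 on both axes, a shift that vanished in the median after rescaling (0.60 against -0.03).

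The plot of ELP against each Glc library shows how the reference changed the picture. The median gene was 0.75 higher in ELP than in Glc 1 and 0.52 higher than in Glc 2, on the log2 scale. ELP was over 2-fold above Glc 1 in 4505 genes and over 2-fold above Glc 2 in 2622, and it was so against both in 1865. In 208 genes ELP was over 2-fold above one Glc library and over 2-fold below the other, and 166 of these stood above Glc 1 and below Glc 2.

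Transcripts of enzymes that degrade plant cell walls were higher in ELP in many of their genes. Of 122 such genes tested, from 5 classes read from the deposited function names (cellulases and beta-glucosidases, hemicellulose enzymes, pectin enzymes, GH5 enzymes without a named activity, and LPMOs with cellobiose dehydrogenase), 57 were higher in ELP and 3 lower. That is 46.7% higher, against 17.3% of all genes. After rescaling 24 were higher and 2 lower, and with array weights 14 and 0. Their median change was 1.56, against 0.60 over all genes, and stayed above 0 after rescaling (0.92). These genes took 2.11, 2.00 and 1.70% of the summed RPKM in ELP and 0.35 and 0.65% in Glc. Of the 12 largest increases with a function name in the whole comparison, 10 belonged to these classes.

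**Figure D2:**
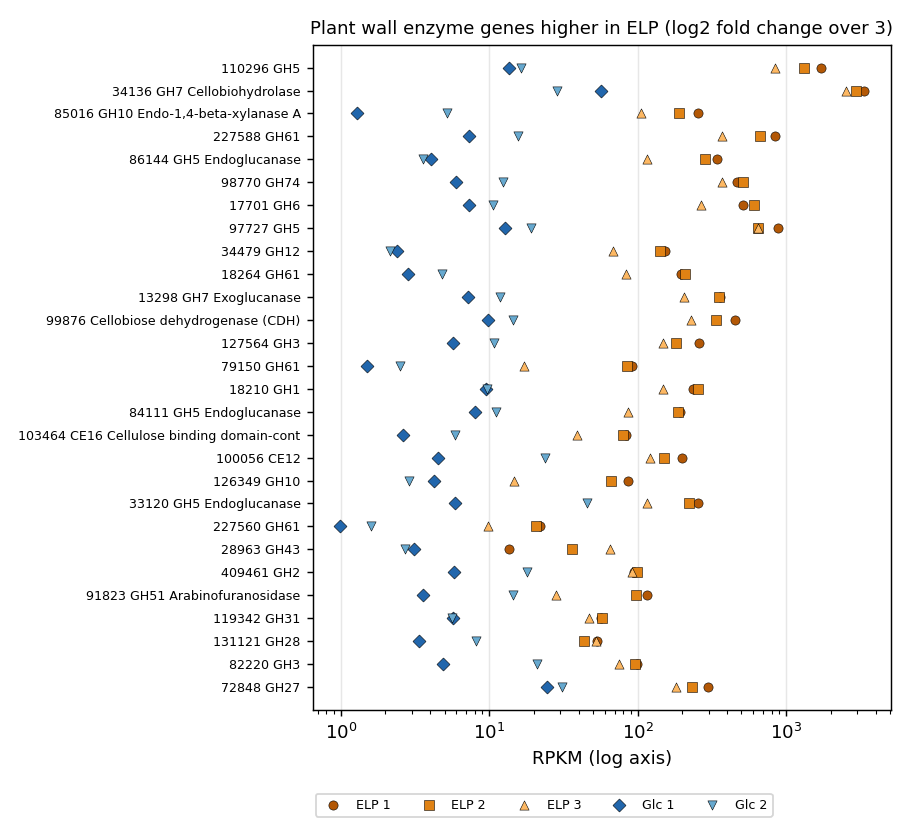
RPKM (log axis) in each of the 5 libraries for 28 plant cell wall genes, named by model number and function. These are the genes called higher with a log2 fold change over 3. The ELP libraries lie above both Glc libraries in each, as in every gene called higher, with ELP 3 mostly the lowest of the 3.

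The ELP cultures themselves differed in these transcripts. ELP 3 was the lowest of the 3 in 49 of the 57 plant cell wall genes that were higher (86%), against 1007 of all 1906 higher genes (52.8%) and 4987 of all genes tested (45.4%). ELP 1 was the highest in 35 of the 57. The lowest ELP value of each of the 57 stood above both Glc values, as it did in all 1906 genes called higher. Whether the order of the libraries reflects the cultures or the sequencing was not tested.

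Cellulose-degrading enzymes were represented by 25 genes, of which 14 were higher and none lower (8 after rescaling, 5 with array weights), with a median change of 1.57. Of the summed RPKM, this class held 0.75, 0.732 and 0.603% on wood but only 0.038 and 0.061% on glucose. The GH7 cellobiohydrolase Phlgi1_34136 stood at 3358, 2944 and 2544 RPKM in ELP and 56.8 and 28.4 RPKM in Glc. It was the most abundant of these transcripts in ELP, and its 3 ELP values were close to each other beside their distance from Glc (log2 fold change 6.17, SE 0.37, adjusted p = 0.00827, after rescaling 0.0109). The second GH7 gene called, the exoglucanase Phlgi1_13298, was measured at 358, 351 and 206 RPKM in ELP and 7.21 and 11.8 RPKM in Glc (log2 fold change 4.93, adjusted p = 0.0103, after rescaling 0.0112). The GH6 enzyme Phlgi1_17701, which like GH7 enzymes releases cellobiose from chain ends, had 512, 610.1 and 265 RPKM in ELP and 7.25 and 10.6 RPKM in Glc (log2 fold change 5.56, SE 0.44, adjusted p = 0.0103, after rescaling 0.0122). ELP 3 was the lowest ELP library in both of the last, and still exceeded both Glc libraries many times over.

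Several endoglucanase transcripts were higher too, but with array weights Phlgi1_86144, Phlgi1_84111 and Phlgi1_34479 were not called (limma adjusted p = 0.0537, 0.0921 and 0.0521). The GH5 endoglucanase Phlgi1_86144 had 340.3, 283 and 114.9 RPKM in ELP and 4.05 and 3.59 RPKM in Glc (log2 fold change 5.69, SE 0.51, adjusted p = 0.0115, after rescaling 0.0162), and a second GH5 endoglucanase, Phlgi1_84111, had 194, 186 and 85.6 RPKM in ELP and 7.99 and 11.1 RPKM in Glc (log2 fold change 3.88, adjusted p = 0.0198, after rescaling 0.0252). The Glc values of the first lay close together. The GH12 endoglucanase Phlgi1_34479 was at 153, 141 and 68.5 RPKM in ELP and 2.37 and 2.15 RPKM in Glc (log2 fold change 5.37, adjusted p = 0.0103, after rescaling 0.0127), whereas a second GH12 gene, Phlgi1_126344, had 27.8, 71.4 and 213 RPKM in ELP and 26.8 and 9.9 RPKM in Glc and did not pass the test (log2 fold change 2.17, adjusted p = 0.121, after rescaling 0.343). In the latter the ELP libraries spread so widely that the lowest fell near Glc 1. Another GH5 endoglucanase, Phlgi1_33120, had 254, 222 and 115.2 RPKM in ELP and 5.91 and 45.8 RPKM in Glc, and its call was lost after rescaling (log2 fold change 3.44, adjusted p = 0.0445, after rescaling 0.1). Here Glc 2 was many times higher than Glc 1. Of the beta-glucosidases, Phlgi1_127564 had 258, 182 and 148 RPKM in ELP and 5.71 and 10.7 RPKM in Glc (log2 fold change 4.52, adjusted p = 0.0115, after rescaling 0.0127) and Phlgi1_18210 had 235, 256 and 147 RPKM in ELP and 9.44 and 9.59 RPKM in Glc (log2 fold change 4.37, adjusted p = 0.0103, after rescaling 0.0127), with Glc values that nearly coincided in the latter. A GH3 gene, Phlgi1_82220, had 99.5, 96.6 and 75 RPKM in ELP and 4.87 and 20.9 RPKM in Glc (log2 fold change 3.07, adjusted p = 0.0343, after rescaling 0.0674). Of 9 GH3 genes tested 6 were higher, but 1 after rescaling, and of 5 GH7 genes 2 were higher under both scalings. One further GH7 model, Phlgi1_69505, shares all 5 values with Phlgi1_80168, so reads cannot be assigned to either.

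Oxidative cellulose degradation split within its class. Of 16 LPMO and cellobiose dehydrogenase genes 5 were higher (31.25%, against 17.3% of all genes) and 1 lower (4 and 1 after rescaling). Their median change was 1.13. With array weights only the cellobiose dehydrogenase gene Phlgi1_99876 was higher and none was lower. The LPMO genes Phlgi1_227588 and Phlgi1_18264 were not called in that fit (limma adjusted p = 0.0521 and 0.0976). The LPMO Phlgi1_227588 had 843, 664 and 371 RPKM in ELP and 7.25 and 15.6 RPKM in Glc (log2 fold change 5.73, SE 0.49, adjusted p = 0.0112, after rescaling 0.0127). This was the largest change of the class, and again ELP 3 was the lowest ELP library. Cellobiose dehydrogenase, the flavocytochrome that oxidises cellobiose and can pass electrons to LPMOs, had 453, 338 and 229 RPKM in ELP and 9.84 and 14.5 RPKM in Glc in its gene Phlgi1_99876 (log2 fold change 4.72, SE 0.39, adjusted p = 0.0104, after rescaling 0.0127). The LPMO genes Phlgi1_18264, with 196, 207 and 82.9 RPKM in ELP and 2.83 and 4.83 RPKM in Glc, and Phlgi1_79150, with 91.4, 84.4 and 17.2 RPKM in ELP and 1.5 and 2.52 RPKM in Glc, were also higher (log2 fold change 5.16, adjusted p = 0.0155, after rescaling 0.0175 and log2 fold change 4.39, adjusted p = 0.0322, after rescaling 0.0562, respectively). In contrast, the LPMO Phlgi1_112944 was the single lower member, at 14, 23.3 and 17.2 RPKM in ELP and 75.5 and 43.2 RPKM in Glc (log2 fold change -1.66, adjusted p = 0.0388, after rescaling 0.0497). The most abundant LPMO of the 5 libraries, Phlgi1_37310, had 1471, 1491 and 1266 RPKM in ELP and 659.8 and 2282 RPKM in Glc and did not pass the test (log2 fold change 0.20, adjusted p = 0.805, after rescaling 0.545). Its ELP values lay between those of Glc 1 and Glc 2.

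Hemicellulose enzymes had the highest median of the plant wall classes. Of 42 genes tested 20 were higher and 1 lower (6 and 0 after rescaling, 4 and 0 with array weights). The median change of 1.71 was 2.38 against Glc 1 and 1.13 against Glc 2. GH74 enzymes, which cut xyloglucan, were represented by Phlgi1_98770 with 465, 512 and 371 RPKM in ELP and 5.99 and 12.3 RPKM in Glc (log2 fold change 5.61, SE 0.38, adjusted p = 0.00827, after rescaling 0.00887). The alpha-galactosidase family GH27, which can remove galactose from galactoglucomannan, was higher in 3 of 3 genes, but in 1 after rescaling, among them Phlgi1_72848 with 298, 232 and 181 RPKM in ELP and 24.6 and 30.9 RPKM in Glc (log2 fold change 3.05, adjusted p = 0.0177, after rescaling 0.0222) and Phlgi1_18020 with 144, 124.97 and 107 RPKM in ELP and 6.95 and 40.6 RPKM in Glc (log2 fold change 2.84, adjusted p = 0.0445, after rescaling 0.107). In the latter Glc 2 was several times higher than Glc 1, and the groups did not overlap in either gene, as in every gene called.

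Xylan enzymes were less uniform. The GH10 endoxylanase Phlgi1_85016 had 256, 190.3 and 106 RPKM in ELP and 1.29 and 5.16 RPKM in Glc (log2 fold change 5.77, SE 0.61, adjusted p = 0.0177, after rescaling 0.0195), while a second GH10 gene, Phlgi1_25162, was the lower member of the class with 6.73, 10.7 and 8.54 RPKM in ELP and 109 and 25.1 RPKM in Glc (log2 fold change -2.56, adjusted p = 0.0437, after rescaling 0.0668). The former was nearly silent in Glc 1 and the latter was highest there. None of the 3 GH11 xylanases passed the test. The CE16 acetylesterase Phlgi1_103464 had 83.1, 80.2 and 38.7 RPKM in ELP and 2.64 and 5.92 RPKM in Glc (log2 fold change 3.84, adjusted p = 0.0254, after rescaling 0.0298). Another CE16 gene, Phlgi1_18836, one of the more abundant transcripts of the class, had 762, 697 and 625 RPKM in ELP and 8.85 and 183 RPKM in Glc and missed the threshold (log2 fold change 4.06, adjusted p = 0.0573, after rescaling 0.126), with Glc values that lay far apart. Among enzymes of side chains, the GH51 gene Phlgi1_91823 had 116, 96.7 and 28.3 RPKM in ELP and 3.58 and 14.4 RPKM in Glc (log2 fold change 3.14, adjusted p = 0.0466, after rescaling 0.111), and both GH51 genes tested were higher, though neither was after rescaling. The GH115 gene Phlgi1_121944 had 29.7, 34.9 and 25.3 RPKM in ELP and 2.24 and 6.38 RPKM in Glc (log2 fold change 2.80, adjusted p = 0.0307, after rescaling 0.0501), and the GH43 gene Phlgi1_28963 had 13.6, 36.2 and 64.9 RPKM in ELP and 3.12 and 2.69 RPKM in Glc (log2 fold change 3.25, adjusted p = 0.0344, after rescaling 0.0831). In the last ELP 3 was the highest library, against the order of most wall enzymes. The genes that follow carry deposited EC numbers of other activities, alpha-glucosidase for the GH31 gene and beta-mannosidase for the GH2 gene. The GH31 gene Phlgi1_119342, with 57, 57.5 and 46.8 RPKM in ELP and 5.67 and 5.63 RPKM in Glc, had Glc values that lay close together (log2 fold change 3.14, adjusted p = 0.0105, after rescaling 0.0165), and the GH2 gene Phlgi1_409461 was at 94, 99 and 91.2 RPKM in ELP and 5.76 and 17.9 RPKM in Glc (log2 fold change 3.15, adjusted p = 0.0297, after rescaling 0.0441).

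Pectin is a minor part of wood but is present in primary walls and pit membranes. Of 23 pectin enzyme genes tested 10 were higher and none lower (3 after rescaling, 1 with array weights), with a median change of 1.49. The CE12 gene Phlgi1_100056, of a family of acetylesterases that act on rhamnogalacturonan, had 198, 151 and 121 RPKM in ELP and 4.53 and 23.7 RPKM in Glc (log2 fold change 3.80, adjusted p = 0.0322, after rescaling 0.0561). The polygalacturonase-type GH28 gene Phlgi1_131121 had 53.3, 43.7 and 52.3 RPKM in ELP and 3.37 and 8.08 RPKM in Glc (log2 fold change 3.12, adjusted p = 0.0254, after rescaling 0.0302), with ELP values that hardly differed. A second GH28 gene, Phlgi1_121738, had 28.9, 30.3 and 25.7 RPKM in ELP and 1.79 and 5.49 RPKM in Glc (log2 fold change 2.96, adjusted p = 0.0297, after rescaling 0.0445), and 4 of 10 GH28 genes were higher (2 after rescaling). All 3 genes tested of CE8, the pectin methylesterase family, were higher, but 1 after rescaling, led by Phlgi1_30798 with 31, 26.6 and 25.6 RPKM in ELP and 3.92 and 7.46 RPKM in Glc (log2 fold change 2.25, adjusted p = 0.0297, after rescaling 0.0492). The most abundant transcript of the class, the PL14 gene Phlgi1_105611, was measured at 228, 244 and 252 RPKM in ELP and 157 and 274 RPKM in Glc, within the range of Glc (log2 fold change 0.21, adjusted p = 0.641, after rescaling 0.333). GH5 genes without a named activity had 8 higher and 1 lower of 16 tested (3 and 1 after rescaling). The gene Phlgi1_110296 had the largest change of all called genes with a function name, with 1718, 1327 and 843 RPKM in ELP and 13.6 and 16.4 RPKM in Glc (log2 fold change 6.33, SE 0.37, adjusted p = 0.00827, after rescaling 0.00887), and Phlgi1_97727 had 887, 649.8 and 651 RPKM in ELP and 12.8 and 19.1 RPKM in Glc (log2 fold change 5.49, adjusted p = 0.00827, after rescaling 0.00887). The study names both as mannanases, enzymes that cut glucomannan, which the deposited function names do not say. The lower one, Phlgi1_129742, had 4.9, 5.83 and 5.65 RPKM in ELP and 15.8 and 18 RPKM in Glc (log2 fold change -1.54, adjusted p = 0.031, after rescaling 0.0208).

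A property that the classes did not use was shared by many of these genes. The cellulose-binding module of fungi (CBM1), a short domain that anchors an enzyme to cellulose, is given by the deposited InterPro description of 24 genes tested. Of these, 17 were higher and 1 lower, with a median change of 3.45, and 11 were higher after rescaling, with a median of 2.82. Plant cell wall classes held 19 of the 24 and 15 of the 17, so both counts largely describe the same genes. The 2 higher genes outside were Phlgi1_27622, called hypothetical, with 202, 186 and 101 RPKM in ELP and 31.3 and 4.7 RPKM in Glc (log2 fold change 3.61, adjusted p = 0.0381, after rescaling 0.102), and Phlgi1_30921, listed only as a CBM1 protein, with 69.1, 77.4 and 40.5 RPKM in ELP and 6.17 and 4.38 RPKM in Glc (log2 fold change 3.41, adjusted p = 0.0198, after rescaling 0.0302). The first was higher in Glc 1 than in Glc 2, the reverse of most wall enzymes. The lower gene was the GH10 enzyme Phlgi1_25162 described above. This description was picked after its values were seen.

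Few genes of lignin-directed oxidoreductases were called, and their classes are small. Of 9 class II peroxidases tested 1 was higher (11.1%, against 17.3% of all genes), and none after rescaling, with a median change of 1.21, or 0.56 after rescaling. The gene called was the generic peroxidase Phlgi1_32509, with 49.8, 38.9 and 43.6 RPKM in ELP and 14.9 and 23.3 RPKM in Glc (log2 fold change 1.21, adjusted p = 0.046, after rescaling 0.228). The lignin peroxidase Phlgi1_150531 had 15.2, 14.2 and 11.7 RPKM in ELP and 1.43 and 7.19 RPKM in Glc and did not pass (log2 fold change 1.87, adjusted p = 0.0686, after rescaling 0.199). The manganese peroxidase Phlgi1_115592 had 5.58, 4.86 and 4.51 RPKM in ELP and 87.3 and 7.77 RPKM in Glc (log2 fold change -2.30, adjusted p = 0.119, after rescaling 0.139), with ELP values under both Glc values but a Glc 1 value more than 10 times that of Glc 2. Of 7 dye-decolorizing and heme-thiolate peroxidases 2 were higher (28.6%, against 17.3% of all genes, and 1 after rescaling), with a median change of 0.80. The dye-decolorizing peroxidase Phlgi1_85295 had 116, 163 and 163 RPKM in ELP and 11.2 and 11.5 RPKM in Glc (log2 fold change 3.62, SE 0.29, adjusted p = 0.0103, after rescaling 0.0162). Its Glc values lay close together, but it was not called with array weights. The heme-thiolate peroxidase Phlgi1_131735 had 17.9, 17.3 and 10.9 RPKM in ELP and 3.69 and 5.78 RPKM in Glc (log2 fold change 1.59, adjusted p = 0.0383, after rescaling 0.123).

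Other oxidoreductases and antioxidant genes were mixed. Among 24 GMC oxidoreductases and methanol oxidases 3 were higher (12.5%, against 17.3% of all genes), led by Phlgi1_128108 with 46.3, 48.8 and 44.4 RPKM in ELP and 4.29 and 11.2 RPKM in Glc (log2 fold change 2.65, adjusted p = 0.0306, after rescaling 0.0501), and none was higher after rescaling. Among 12 copper radical and multicopper oxidases none was higher and 1 lower (8.33%, against 2.26% of all genes). This was the copper radical oxidase Phlgi1_128606, with 145.3, 169 and 166 RPKM in ELP and 2590.2 and 826 RPKM in Glc (log2 fold change -3.19, SE 0.51, adjusted p = 0.0305, after rescaling 0.0338), where both Glc libraries were high. Cytochromes P450, monooxygenases of many roles, had 24 higher of 123 tested (19.5%, near the 17.3% of all genes) and 3 lower, and 1 and 4 after rescaling. Their median change was 0.67, and 0.06 after rescaling. The P450 Phlgi1_62450 had 385, 340.3 and 434 RPKM in ELP and 33.8 and 91.6 RPKM in Glc (log2 fold change 2.78, adjusted p = 0.031, after rescaling 0.0549), and Phlgi1_68457, in the other direction, had 14.6, 17.4 and 12.4 RPKM in ELP and 78.7 and 73.4 RPKM in Glc (log2 fold change -2.34, adjusted p = 0.0221, after rescaling 0.0134). Antioxidant genes had 10 higher of 76 (13.2%) and 2 lower, and 0 and 3 after rescaling. Among them, the glutathione transferase Phlgi1_129073 had 1112, 644 and 454 RPKM in ELP and 13.2 and 131 RPKM in Glc (log2 fold change 4.02, adjusted p = 0.0417, after rescaling 0.0918) and the peroxiredoxin Phlgi1_95619 had 25.6, 31.6 and 20.7 RPKM in ELP and 147 and 78.8 RPKM in Glc (log2 fold change -2.06, adjusted p = 0.0333, after rescaling 0.0372). Glc 2 was about 10 times Glc 1 in the former.

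Lipases, which split fats, were called in several members. Of 25 genes 9 were higher (36%, against 17.3% of all genes) and 1 lower (4 and 1 after rescaling). The median change was 0.70, which rescaling took to 0.04. The class 3 lipase Phlgi1_19028 had 324, 271 and 233 RPKM in ELP and 13.6 and 34.7 RPKM in Glc (log2 fold change 3.62, SE 0.45, adjusted p = 0.0246, after rescaling 0.0263). In Phlgi1_74623, named a carotenoid ester lipase, the values were 133, 177 and 171 RPKM in ELP and 3.68 and 16.2 RPKM in Glc (log2 fold change 4.26, adjusted p = 0.0286, after rescaling 0.0366), and in Phlgi1_106726 they were 61.6, 51 and 51 RPKM in ELP and 6.74 and 10.8 RPKM in Glc (log2 fold change 2.60, adjusted p = 0.0223, after rescaling 0.0283), with ELP libraries close together in both. The lipase Phlgi1_99110 had 20.4, 68 and 240.2 RPKM in ELP and 3.13 and 5.27 RPKM in Glc (log2 fold change 3.94, adjusted p = 0.0447, after rescaling 0.111), with a wide range within ELP. The lower gene, Phlgi1_129172, had 2.29, 5.25 and 1.96 RPKM in ELP and 15.7 and 57.4 RPKM in Glc (log2 fold change -3.17, adjusted p = 0.036, after rescaling 0.0389).

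Uptake of sugars changed in individual carriers more than as a class. Of 167 sugar and other major facilitator (MFS) transporters 34 were higher and 4 lower (4 and 5 after rescaling), a share near that of all genes, with a median change of 0.65. The hexose transporter Phlgi1_98430 had 2155, 1941 and 1379.7 RPKM in ELP and 30.9 and 127 RPKM in Glc (log2 fold change 4.83, SE 0.62, adjusted p = 0.0254, after rescaling 0.0275), which made it one of the most abundant carriers on wood. The carrier Phlgi1_33910 had 367, 294 and 211 RPKM in ELP and 8.75 and 11.1 RPKM in Glc (log2 fold change 4.78, adjusted p = 0.00827, after rescaling 0.0101), and the MFS transporter Phlgi1_73600 had 164, 155 and 116 RPKM in ELP and 11.3 and 6.95 RPKM in Glc (log2 fold change 3.94, adjusted p = 0.0112, after rescaling 0.0195). A further MFS transporter of sugar type, Phlgi1_69667, had 339, 326 and 186 RPKM in ELP and 10.5 and 33.1 RPKM in Glc (log2 fold change 3.83, adjusted p = 0.0297, after rescaling 0.0385). All 4 were lower in each Glc library than in any ELP library, as was every gene called higher. In the other direction the MFS transporter Phlgi1_59743 had 10.9, 13.2 and 10.4 RPKM in ELP and 73.2 and 94.5 RPKM in Glc (log2 fold change -2.81, adjusted p = 0.0157, after rescaling 0.0101), with Glc values near each other. The aquaporin Phlgi1_69030, a channel for water or small solutes, had 596, 523 and 446 RPKM in ELP and 9.9 and 34.2 RPKM in Glc (log2 fold change 4.77, adjusted p = 0.0198, after rescaling 0.021). ABC proteins, ATP-driven pumps, had 17 higher (29.3%, against 17.3% of all genes) and none lower of 58 tested, but 1 higher after rescaling. That gene was the ABC-C protein Phlgi1_534835, with 67.1, 53.2 and 59 RPKM in ELP and 7.31 and 12.6 RPKM in Glc (log2 fold change 2.57, adjusted p = 0.0254, after rescaling 0.0315).

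Nitrogen carriers went in both directions. Of 57 transporters of amino acids, peptides and other nitrogen compounds 6 were higher and 6 lower, against 17.3% and 2.26% of all genes, and 0 and 5 after rescaling. Their median change, 0.54 as deposited and -0.10 after rescaling, lay near that of all genes under both scalings. The purine-cytosine permease Phlgi1_99130 had 14.5, 15.4 and 15.1 RPKM in ELP and 168 and 196 RPKM in Glc (log2 fold change -3.55, SE 0.25, adjusted p = 0.00827, after rescaling 0.00887). It passed under array weights too, and its ELP libraries nearly coincided. The amino acid permease Phlgi1_131234 had 23.5, 28 and 16 RPKM in ELP and 642 and 183 RPKM in Glc (log2 fold change -3.94, adjusted p = 0.0297, after rescaling 0.0296), and the oligopeptide transporter Phlgi1_134051 had 1.53, 1.65 and 1.08 RPKM in ELP and 58.2 and 8.8 RPKM in Glc (log2 fold change -3.62, adjusted p = 0.0366, after rescaling 0.0569). Both were highest in Glc 1. The higher genes included the dicarboxylic amino acid permease Phlgi1_22868, with 42.4, 46.4 and 51.4 RPKM in ELP and 5.83 and 13.5 RPKM in Glc (log2 fold change 2.32, adjusted p = 0.0321, after rescaling 0.0619). The iron permease FTR1, Phlgi1_77664, was lower, with 23.7, 23.6 and 11.3 RPKM in ELP and 106 and 123 RPKM in Glc (log2 fold change -2.59, adjusted p = 0.0301, after rescaling 0.0218).

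Other transcripts that passed all 3 fits lay outside wood degradation. Of the 52 higher genes 14 belonged to the plant cell wall classes and 15 were called hypothetical. The remainder included, as genes picked after their values were seen, 3 linked to DNA repair. The DNA photolyase Phlgi1_32310, which reverses ultraviolet damage in light, had 62.1, 91 and 94.5 RPKM in ELP and 5.3 and 7.18 RPKM in Glc (log2 fold change 3.61, SE 0.32, adjusted p = 0.0115, after rescaling 0.018). The ultraviolet damage endonuclease Phlgi1_100657 had 84.5, 94.4 and 119 RPKM in ELP and 7.01 and 14.8 RPKM in Glc (log2 fold change 3.20, adjusted p = 0.0236, after rescaling 0.0294), and the SNF2-type repair gene Phlgi1_323542 had 41.1, 36.9 and 39.6 RPKM in ELP and 4.83 and 6.96 RPKM in Glc (log2 fold change 2.65, adjusted p = 0.0177, after rescaling 0.0222). In all 3, both Glc libraries lay far under every ELP library. Salicylate hydroxylase Phlgi1_505102, an enzyme that turns salicylate into catechol, had 118, 113 and 140.3 RPKM in ELP and 3.06 and 12.3 RPKM in Glc (log2 fold change 4.19, adjusted p = 0.0265, after rescaling 0.0305). The M35 metallopeptidase Phlgi1_101670, of a family of secreted zinc proteases, passed the first 2 fits but not the one with array weights, with 937, 732 and 288 RPKM in ELP and 19.8 and 23.7 RPKM in Glc (log2 fold change 4.72, adjusted p = 0.0198, after rescaling 0.0252). Among genes without a known function, Phlgi1_77281 had 481, 334 and 242 RPKM in ELP and 2.69 and 7.92 RPKM in Glc (log2 fold change 6.03, SE 0.52, adjusted p = 0.0112, after rescaling 0.0127) and Phlgi1_424549 had 139, 114 and 96.5 RPKM in ELP and 1.27 and 5.38 RPKM in Glc (log2 fold change 5.16, adjusted p = 0.0177, after rescaling 0.0194), changes as large as those of the main cellulases.

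Genes called hypothetical without a domain were called more often than all genes, but the word marks only some of the genes without a known function. It is entered for 629 models without a domain, while 4121 models have no annotation. Of 558 tested, 228 were higher (40.9%, against 17.3% of all genes) and 45 lower (8.06%, against 2.26%). After rescaling 43 were higher and 48 lower. The median change was 1.11 (0.49 after rescaling). Of 3528 genes without any annotation 530 were higher (15.0%). The sources used here do not say how genes came to have a function name. Genes with any function name other than hypothetical were higher in 25.1% (294 of 1170), and still in 22.6% of the 1048 outside the plant cell wall classes, against 16.4% of the other 9824. The part of this difference in the counts of the classes was not tested.

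**Figure D3:**
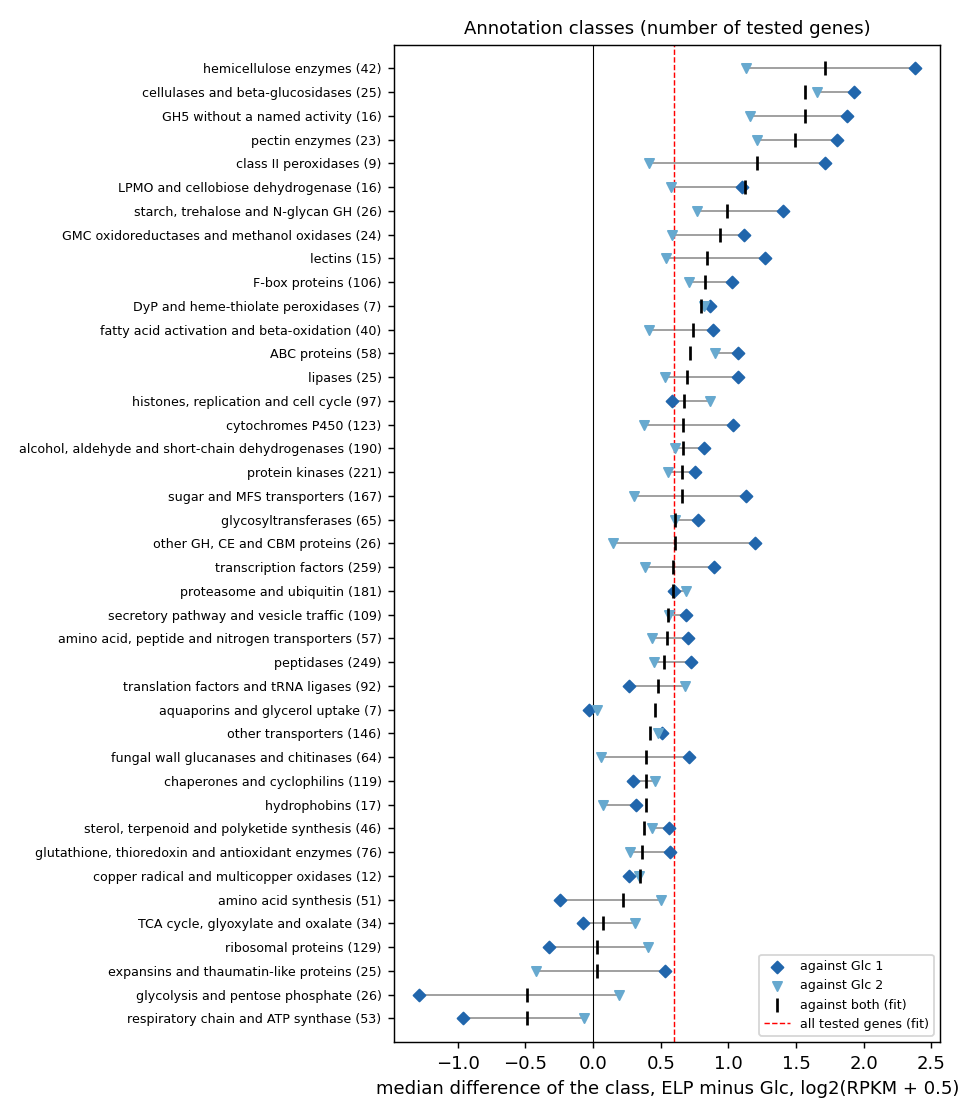
Median change of ELP on the log2(RPKM + 0.5) scale for each annotation class, against Glc 1, against Glc 2 and in the fit of both, with the median of all genes tested as a dashed line (0.60). The plant cell wall classes lie right of the line, while glycolysis and the respiratory chain lie left of it and differ between the 2 Glc libraries, and after rescaling all medians shift left, as that of all genes does (to -0.03), and the median of the fungal wall class goes from 0.39 to -0.24.

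Enzymes assigned by the word rules to the fungus's own wall had a share of higher genes near that of all genes. Of 64 such genes 10 were higher (15.6%, against 17.3% of all genes) and 3 lower, and 0 and 5 after rescaling. Their median change was 0.39 as deposited and -0.24 after rescaling, where that of all genes was 0.60 and -0.03. The hexosaminidase Phlgi1_255833 of family GH20, which removes the sugar units of chitin chains, had 75.2, 66.5 and 25.9 RPKM in ELP and 1.05 and 6.05 RPKM in Glc (log2 fold change 4.01, adjusted p = 0.034, after rescaling 0.062). The rules also place family GH79 in this class, and its role in the fungal wall was not tested. The GH79 gene Phlgi1_13785 was lower with 9.66, 9.16 and 6.2 RPKM in ELP and 25.7 and 137 RPKM in Glc (log2 fold change -2.79, adjusted p = 0.0451, after rescaling 0.053). The most abundant, the GH128 gene Phlgi1_61167, had 869, 791 and 847 RPKM in ELP and 954 and 2124 RPKM in Glc and did not pass (log2 fold change -0.77, adjusted p = 0.186, after rescaling 0.0723). Starch, trehalose and N-glycan enzymes had 9 higher of 26 (34.6%), led by the glucoamylase Phlgi1_128120 with 69.4, 47.7 and 31.3 RPKM in ELP and 3.2 and 8.75 RPKM in Glc (log2 fold change 3.02, adjusted p = 0.0321, after rescaling 0.0563), and 1 after rescaling, the GH47 gene Phlgi1_21070, with 7.51, 7.18 and 7.57 RPKM in ELP and 0.737 and 1.53 RPKM in Glc (log2 fold change 2.32, adjusted p = 0.0266, after rescaling 0.0377). Family GH47 holds mannosidases that trim N-glycans.

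Few calls of regulatory and housekeeping classes survived rescaling, as over all genes, where 147 of the 1906 higher calls did. Transcription factors had 43 higher and 3 lower of 259 (3 and 3 after rescaling), 16.6% higher with a median of 0.59, led by Phlgi1_11523 with 123, 99.5 and 59.6 RPKM in ELP and 3.86 and 16 RPKM in Glc (log2 fold change 3.42, adjusted p = 0.0339, after rescaling 0.0619). Protein kinases had 39 higher and 3 lower of 221 (4 and 4), 17.6% higher with a median of 0.66, led by Phlgi1_21712 with 22.2, 23.6 and 47.1 RPKM in ELP and 1.36 and 3.13 RPKM in Glc (log2 fold change 3.51, adjusted p = 0.0271, after rescaling 0.0385). F-box proteins, which select targets for ubiquitination, had 26 higher of 106 (24.5%) with a median of 0.83, and none was higher after rescaling. Histone, replication and cell cycle genes had 22 higher (22.7%) and 1 lower of 97 (1 and 1 after rescaling), led by the cyclin Phlgi1_125960 with 355, 248 and 196 RPKM in ELP and 9.78 and 41.4 RPKM in Glc (log2 fold change 3.64, adjusted p = 0.0321, after rescaling 0.0549). Proteasome and ubiquitin genes had 32 higher and 1 lower of 181 (0 and 0 after rescaling), 17.7% higher, near the 17.3% of all genes. Chaperones had 11 (9.24%) and 4 of 119 (0 and 1 after rescaling). The medians were 0.59 and 0.39. Among the genes that the word rules place with the chaperones, 2 of the bacterial rhodopsin type went in opposite directions. A chaperone role of these was not tested. One, Phlgi1_20200, had 66.2, 193 and 226 RPKM in ELP and 2198 and 635 RPKM in Glc (log2 fold change -3.05, adjusted p = 0.0422, after rescaling 0.0662), and the other, Phlgi1_28161, had 64.8, 39.7 and 28.4 RPKM in ELP and 4.98 and 9.81 RPKM in Glc (log2 fold change 2.49, adjusted p = 0.034, after rescaling 0.0682). Both calls were lost after rescaling.

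Ribosomal proteins changed little. Of 129 genes 1 was higher and 1 lower (0.775% each, against 17.3% and 2.26% of all genes). The median change of the 129 was 0.03 while that of all genes was 0.60, and it was -0.63 for the 129 after rescaling. They held 6.01, 5.10 and 4.78% of the summed RPKM in ELP and 6.38 and 3.78% in Glc, so the ELP values lay between those of Glc 1 and Glc 2. After rescaling none was higher and 4 were lower.

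The largest decreases among genes with a function name were spread over several functions. The expansin family gene Phlgi1_77537, of a group of proteins that can loosen plant walls, had 97.1, 172 and 52.6 RPKM in ELP and 5022 and 2693 RPKM in Glc (log2 fold change -5.26, SE 0.57, adjusted p = 0.0186, after rescaling 0.0165). Both Glc libraries exceeded every ELP library more than 10 times, whereas another expansin, Phlgi1_130468, was higher with 224, 164 and 296 RPKM in ELP and 79.5 and 24.7 RPKM in Glc (log2 fold change 2.30, adjusted p = 0.0417, after rescaling 0.158). A further one, Phlgi1_18613, had 4431, 3864 and 2686 RPKM in ELP and 1293 and 9536 RPKM in Glc, with Glc values on either side of ELP. Of 25 expansins and thaumatin-like proteins 1 was higher (4%, against 17.3% of all genes) and 3 lower (12%, against 2.26%). After rescaling 0 were higher and 3 lower. The oxalate decarboxylase Phlgi1_66932, which breaks oxalate down to formate and carbon dioxide, had 112, 108 and 31.8 RPKM in ELP and 545 and 13249 RPKM in Glc (log2 fold change -5.20, SE 1.36, adjusted p = 0.0482, after rescaling 0.0677). Its Glc values were far apart, and its call was lost after rescaling. The transporter Phlgi1_73402 had 5.81, 4.64 and 4.7 RPKM in ELP and 191 and 68.2 RPKM in Glc (log2 fold change -4.38, adjusted p = 0.0186, after rescaling 0.0183). Of 17 hydrophobins, small proteins that coat hyphae, none was higher and 2 were lower (11.8%), under both scalings. The shares of all genes were 17.3% higher and 2.26% lower with the RPKM as deposited. The lower hydrophobins were led by Phlgi1_20660 with 10.9, 8.11 and 3.95 RPKM in ELP and 54.3 and 45.2 RPKM in Glc (log2 fold change -2.72, adjusted p = 0.031, after rescaling 0.0269).

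Peptidases had 43 higher genes of 249, the same 17.3% as all genes, and 9 lower (3 and 9 after rescaling), with a median change of 0.53. The lower ones included aspartic peptidases of family A1 and serine carboxypeptidases of family S10, many of which act in acid surroundings. Neither family was lower as a whole. By InterPro description, A1 had 4 higher and 4 lower of 39 genes tested (0 and 3 after rescaling). S10 had 6 higher and 2 lower of 23 (1 and 3 after rescaling). The A1 gene Phlgi1_125069 had 205, 342 and 368 RPKM in ELP and 1796 and 2795 RPKM in Glc (log2 fold change -2.92, adjusted p = 0.0265, after rescaling 0.0177), and the A1 gene Phlgi1_460435 had 1.8, 2.28 and 1.13 RPKM in ELP and 21.4 and 82 RPKM in Glc (log2 fold change -4.28, adjusted p = 0.0286, after rescaling 0.0195). The aspartic proteinase Phlgi1_85373 had 5.51, 7.76 and 3.95 RPKM in ELP and 28.9 and 298 RPKM in Glc, with a call that was lost after rescaling (log2 fold change -3.96, adjusted p = 0.0418, after rescaling 0.0561). The S10 gene Phlgi1_102393 had 54, 56.9 and 105.3 RPKM in ELP and 427 and 770.2 RPKM in Glc (log2 fold change -3.05, adjusted p = 0.029, after rescaling 0.0197), and the carboxypeptidase Phlgi1_69040, which passed all 3 fits, had 7.26, 8.63 and 8.76 RPKM in ELP and 58.3 and 53.1 RPKM in Glc (log2 fold change -2.69, adjusted p = 0.0155, after rescaling 0.0114). Glc values were the nearest to each other in the last.

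The largest decreases of all belonged to genes that the deposited table calls hypothetical. The gene Phlgi1_271517 fell to under the level of a median gene, with 13.7, 18.8 and 9.28 RPKM in ELP and 2559 and 1080.2 RPKM in Glc (log2 fold change -6.91, SE 0.49, adjusted p = 0.00827, after rescaling 0.0101). In Phlgi1_36459, which the study lists as a putative C-type lectin, the values were 14.4, 14.6 and 8.46 RPKM in ELP and 807 and 1875 RPKM in Glc (log2 fold change -6.61, SE 0.46, adjusted p = 0.00827, after rescaling 0.00887), and in Phlgi1_123941, where the Glc libraries nearly coincided, they were 53.5, 58 and 26.5 RPKM in ELP and 2556 and 2512 RPKM in Glc (log2 fold change -5.85, adjusted p = 0.00827, after rescaling 0.00887). Some of the most abundant transcripts of Glc behaved alike. The gene Phlgi1_129398 had 288, 449 and 112 RPKM in ELP and 28439 and 4651 RPKM in Glc (log2 fold change -5.56, adjusted p = 0.031, after rescaling 0.0385), and Phlgi1_216146 had 403, 1026 and 562 RPKM in ELP and 16606 and 7962 RPKM in Glc (log2 fold change -4.22, adjusted p = 0.0246, after rescaling 0.0218).

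Central carbon metabolism differed between the Glc libraries themselves. Of 26 glycolysis and pentose phosphate genes 2 were higher and 2 lower (7.69% each, against 17.3% and 2.26% of all genes). After rescaling 0 of these 26 genes were higher and 2 lower. Their median change of -0.49, on the other side of 0 from that of all genes, was -1.29 against Glc 1 and 0.19 against Glc 2. As a share of the summed RPKM they took 0.52, 0.47 and 0.46% in ELP, 2.31% in Glc 1 and 0.53% in Glc 2. In this summed share the ELP libraries stood near Glc 2 and far under Glc 1. Gene by gene, ELP was within 2-fold of Glc 2 in 16 of the 26 and within 2-fold of Glc 1 in 8, and lay below both in 9. Glc 1 exceeded Glc 2 over 2-fold in 14 of the 26.

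**Figure D4:**
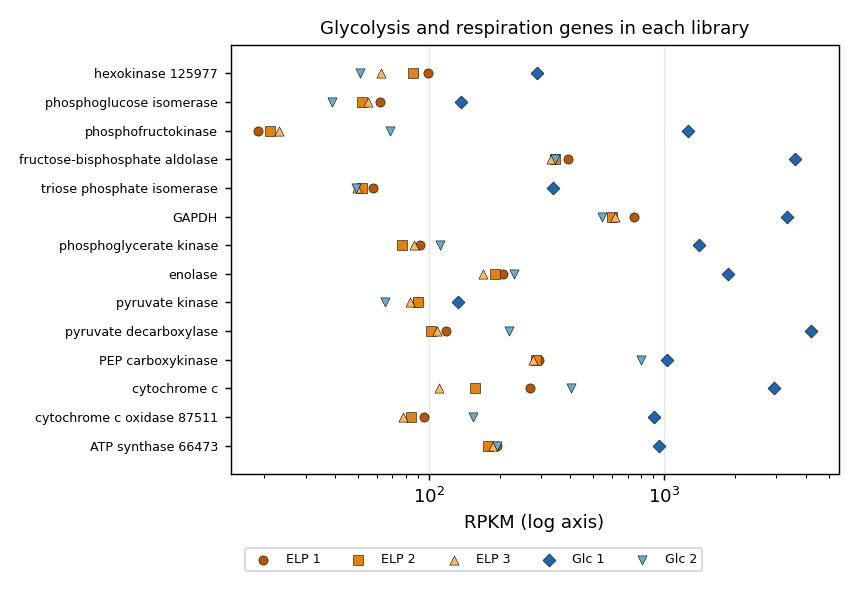
RPKM (log axis) in each of the 5 libraries for 14 genes of glycolysis, fermentation, the route back to glucose and the respiratory chain. In most genes Glc 1 lies far to the right of the other 4 libraries, while Glc 2 lies close to ELP, as for the aldolase gene Phlgi1_84121 with 345 RPKM in Glc 2 and 332 to 391 in ELP against 3607 in Glc 1.

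Among the upper steps, phosphofructokinase Phlgi1_29645 had 18.8, 21.2 and 23.2 RPKM in ELP and 1269.8 and 68.6 RPKM in Glc and aldolase Phlgi1_84121 had 391, 344 and 332 RPKM in ELP and 3607 and 345 RPKM in Glc. Neither passed the test (adjusted p = 0.0631 and 0.225). Among the lower steps, phosphoglycerate kinase Phlgi1_110573 had 91.6, 77.3 and 86.2 RPKM in ELP and 1406 and 112 RPKM in Glc and enolase Phlgi1_129689 had 207, 192 and 171 RPKM in ELP and 1862 and 229 RPKM in Glc (adjusted p = 0.146 and 0.16). Glc 1 was far above the other libraries in each of these, and Glc 2 also stood above ELP in phosphofructokinase. Pyruvate decarboxylase Phlgi1_101493, which leads to ethanol, had 118, 102 and 108 RPKM in ELP and 4206 and 219 RPKM in Glc (adjusted p = 0.0967). Only 2 lower calls separated both Glc libraries from ELP. Phosphoenolpyruvate carboxykinase Phlgi1_19444, which opens the route back to glucose, had 295, 286 and 278 RPKM in ELP and 1029 and 797 RPKM in Glc (log2 fold change -1.66, adjusted p = 0.0305, after rescaling 0.0233), and ribulose-phosphate 3-epimerase Phlgi1_20963 had 125.33, 90.8 and 64.3 RPKM in ELP and 329.7 and 246 RPKM in Glc (log2 fold change -1.65, adjusted p = 0.0385, after rescaling 0.0408). Phosphoglycerate mutase Phlgi1_97689 was higher, with 252, 190.2 and 162 RPKM in ELP and 63.6 and 58.7 RPKM in Glc, until rescaling (log2 fold change 1.69, adjusted p = 0.0322, after rescaling 0.0991).

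The respiratory chain followed the pattern of glycolysis. Of 53 genes 1 was higher (1.89%, against 17.3% of all genes) and 5 lower (9.43%, against 2.26%), and 0 and 5 after rescaling. The medians of the 53 genes were -0.96 against Glc 1 and -0.07 against Glc 2. Their share of the summed RPKM was 0.89, 0.77 and 0.73% in ELP, 2.42% in Glc 1 and 0.95% in Glc 2. The cytochrome c oxidase subunit VIIc gene Phlgi1_120920 was lower with 69.3, 54.4 and 30.7 RPKM in ELP and 3281 and 1048 RPKM in Glc (log2 fold change -5.24, adjusted p = 0.0198, after rescaling 0.0194), and the ATP synthase gamma subunit Phlgi1_70525 with 11.8, 10.2 and 8.62 RPKM in ELP and 32.9 and 26.1 RPKM in Glc (log2 fold change -1.49, adjusted p = 0.0343, after rescaling 0.0294). Cytochrome c itself, Phlgi1_109773, had 269.6, 157 and 110.4 RPKM in ELP and 2934 and 400.4 RPKM in Glc, and did not pass (adjusted p = 0.0722). Genes of the TCA cycle, the glyoxylate shunt and oxalate had 2 higher (5.88%) and 1 lower (2.94%) of 34. The shares of all genes were 17.3% and 2.26%. After rescaling none of the 34 was called, and their median of 0.07 became -0.59. The enzymes of the glyoxylate shunt were among those not called. Isocitrate lyase Phlgi1_93159 had 74, 91.5 and 117 RPKM in ELP and 84.4 and 41.4 RPKM in Glc (adjusted p = 0.268), and malate synthase Phlgi1_27815 had 129, 132 and 149 RPKM in ELP and 104 and 79.8 RPKM in Glc (adjusted p = 0.155).

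Some transcripts were abundant on wood and in Glc 2 but scarce in Glc 1. Methanol oxidase Phlgi1_120749, which yields hydrogen peroxide from methanol, had 5019.9, 7003 and 9810.3 RPKM in ELP and 99.5 and 10342 RPKM in Glc. The glycerol uptake gene Phlgi1_99331 had 998, 1326 and 1408 RPKM in ELP and 38.9 and 1229 RPKM in Glc, and the trehalase of family GH37, Phlgi1_129041, had 803, 960.2 and 837 RPKM in ELP and 18 and 711 RPKM in Glc. None of these was called (adjusted p = 0.282, 0.209 and 0.171, respectively), and in each the Glc values lay far apart. The most abundant transcript of ELP, the HSP9/12 gene Phlgi1_108674, had 21625, 18262 and 11069 RPKM in ELP and 139 and 5768 RPKM in Glc. It stood above both Glc libraries, but the Glc values lay far apart (adjusted p = 0.0868). The small heat shock protein Hsp20 Phlgi1_92252 was the reverse, with 479.9, 273 and 126 RPKM in ELP and 29904 and 1154 RPKM in Glc, and was not called (adjusted p = 0.0632, after rescaling 0.0959). The gene Phlgi1_124367, with 7093, 15124 and 6432 RPKM in ELP and 2173 and 119950.0 RPKM in Glc, alone took 13.9% of the summed RPKM of Glc 2. Over all genes, 1237 (11.3%) were over 2-fold higher in Glc 1 than in Glc 2, and 2622 (23.8%) over 2-fold higher in Glc 2. ELP was within 2-fold of Glc 1 in 50.3% of the genes and within 2-fold of Glc 2 in 67.8%.

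A small set of genes differed among the ELP cultures. Of the 10994 genes tested 127 (1.16%) had an over 4-fold range within ELP, and 34 (0.309%) an over 8-fold range. In the 127, ELP 3 was the highest in 60 and the lowest in 59, and ELP 1 was the highest in 41 and the lowest in 65. Of the 34, ELP 3 was the highest in 27 and ELP 1 the lowest in 28. The flavodoxin-like gene Phlgi1_130514 had 17.8, 182 and 1933 RPKM in ELP and 12.5 and 7.54 RPKM in Glc and was not called (adjusted p = 0.134, after rescaling 0.269). The MFS transporter Phlgi1_25152 of the tetracycline resistance type had 48, 735 and 3025 RPKM in ELP and 6.91 and 8 RPKM in Glc, and its large change missed the threshold (log2 fold change 5.91, adjusted p = 0.0533, after rescaling 0.12). In both, the range within ELP was larger than the distance of ELP 1 from Glc.

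**Figure D5:**
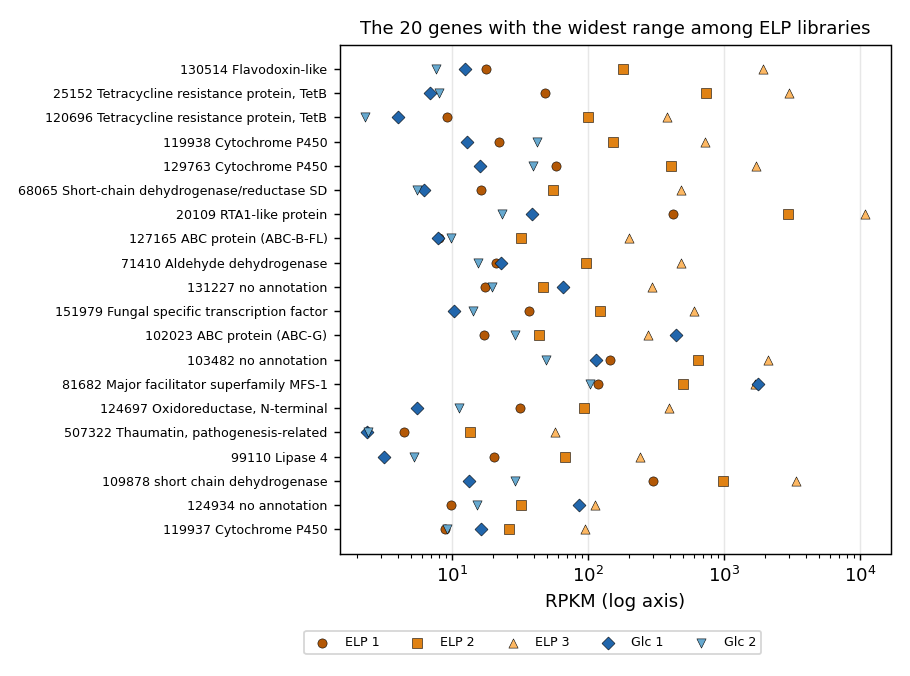
RPKM (log axis) in each of the 5 libraries for the 20 genes with the widest range within ELP. In most of them ELP 1 lies lowest and ELP 3 highest of the ELP libraries, as in the flavodoxin-like gene with 17.8 RPKM in ELP 1 and 1933 RPKM in ELP 3.

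The plot of the widest ranges shows ELP 1 lowest and ELP 3 highest in genes of several functions. The P450 genes Phlgi1_119938 and Phlgi1_129763 had 22.2, 151 and 726 RPKM in ELP and 12.8 and 42.1 RPKM in Glc and 57.9, 405 and 1710.3 RPKM in ELP and 16 and 39.4 RPKM in Glc, respectively. The short-chain dehydrogenase Phlgi1_68065 had 16.3, 55.5 and 485 RPKM in ELP and 6.2 and 5.54 RPKM in Glc, and the aldehyde dehydrogenase Phlgi1_71410 had 20.9, 97.2 and 484 RPKM in ELP and 23 and 15.4 RPKM in Glc. The ABC-B protein Phlgi1_127165 had 7.96, 32.1 and 199 RPKM in ELP and 7.79 and 9.78 RPKM in Glc. This order is the reverse of that of the plant cell wall genes, in which ELP 3 was mostly the lowest. None of these P450, dehydrogenase and ABC-B genes was called (adjusted p = 0.225, 0.0937, 0.0963, 0.191 and 0.253 in the order given). Some other genes of the plot were called higher with a wide error. The RTA1-like gene Phlgi1_20109, of a membrane protein family whose member in *Saccharomyces cerevisiae* is linked to resistance to an aminosterol, had 420.4, 2935 and 10981 RPKM in ELP and 38.9 and 23.2 RPKM in Glc (log2 fold change 6.29, SE 1.30, adjusted p = 0.0361, after rescaling 0.0755). The short-chain dehydrogenase Phlgi1_109878 had 298, 987 and 3392 RPKM in ELP and 13.2 and 29 RPKM in Glc (log2 fold change 5.63, SE 1.01, adjusted p = 0.0322, after rescaling 0.0605). Both calls were lost after rescaling.

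Few genes were present in one medium only. Of the 11891 models 11063 had a value above 0 in all 5 libraries and 387 were listed at 0 in all 5. Only 4 were at 0 in both Glc libraries with a value in every ELP library, and 25 were at 0 in every ELP library with a value in both Glc libraries. Of the genes called, 13 of the higher had a 0 in a Glc library and 5 of the lower had a 0 in an ELP library.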

How the data were processed

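Total RNA of frozen mycelium was made into poly-A libraries by the authors with the TruSeq kit and sequenced on an Illumina HiSeq2000, and the submitters' processing notes name CASAVA 1.8.2. The deposited values are RPKM, which the authors made with SeqNGen for mapping and QSeq (DNAStar) for scaling the reads of a gene to its length and to the size of the library. Which sequences the reads were mapped to, the genome build and how reads with several matches were handled: not given in the sources used here. Library totals were estimated from the spacing of low RPKM with RefSeq gene lengths, which matched 11824 models. Within 0.01 of a read, 133 to 212 of 290 to 681 low values per library were whole multiples of 1 read, so the totals are approximate, and the precision of low values is limited by them. All value columns of the table carry a sample, so the number of columns without one is 0.

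The 10994 of 11891 genes that averaged 1 RPKM or more in these 5 libraries were tested as log2(RPKM + 0.5) with the two-sided moderated test of limma 3.58.1 in R 4.3.3, with Benjamini-Hochberg adjustment over all of them, and a gene was called at an adjusted p under 0.05. With 3 libraries against 2 there are 10 arrangements, so the smallest p of an exact permutation test is 0.10, and single genes were tested with limma alone. The cultures were separate by the labels (triplicate and duplicate), and equal replicate numbers were not taken as pairs. Classes were read by word rules from function names, then InterPro descriptions, then EC numbers, and are given by counts and medians with no test of their own. Overlapping gene models and near-identical copies may share reads.

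Genes were named by a rule: in each direction the 12 largest changes with a function name and the 2 largest without, among calls with at least 10 RPKM on average in the higher medium, no overlap and the same direction after rescaling; the largest change in each direction and the most abundant member of each class; and the 5 most abundant genes of ELP, Glc 1 and Glc 2. Other genes in the text were chosen after their values were seen. The comparison, classes and lists were chosen with earlier results of these data known. Alternatives were other pseudocounts (1 and 0.1), no filter and a filter of 10 RPKM, rescaling by the median of gene ratios or the upper quartile, a fit over all 3 media, array weights, a replicate block and leaving out each library. The authors' own comparison columns, ratios and probabilities, were not used.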

Additional observations from a re-analysis of the deposited data

How the results depend on the processing

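The number of genes called in limma depended strongly on the scaling and on how the spread was estimated. Against 1906 higher and 249 lower, rescaling by the median of gene ratios gave 147 higher and rescaling to the upper quartile 142 higher, with 251 and 192 lower. A fit over all 3 media gave 4099 higher and 570 lower, and array weights in that fit 53 and 18. Leaving out 1 library at a time gave 0 to 5085 higher and 0 to 1094 lower. The counts of 0 came with each ELP library left out, where the lowest adjusted p was 0.0519 to 0.0884 and 2381 to 3049 genes were higher and 382 to 393 lower at an unadjusted p under 0.05. Pseudocounts of 1 and 0.1, no filter and a filter of 10 RPKM kept both counts within 1.5 times.

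Added after seeing the data, rescaling in the fit over 3 media gave 1176 higher and 1269 lower, and rescaling with 1 library left out 0 to 2327 higher and 0 to 2422 lower (648 and 1366 without Glc 1). The 0 counts were again those without an ELP library, with 727 to 1076 higher and 975 to 1051 lower at an unadjusted p under 0.05.

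With the replicate number as a block, limma called 85 genes higher and 35 lower. The deviations of equal numbers correlated at 0.085 and 0.196 over only 2 shared numbers, so the libraries were not treated as paired.

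No gene named by the rule changed sign where it was called. Of its 83 calls, 51 kept their side of the threshold after rescaling by the median of gene ratios, 49 after the upper quartile, 83 in the fit over 3 media, 19 with array weights, 33 with the block, 82 without Glc 1, 82 without Glc 2 and none without any 1 of the ELP libraries. The causes were not tested. At 5.95 to 14 reads for 1 RPKM in a gene of 1 kb, depth limits genes of a few RPKM.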

Other observations

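Over all InterPro descriptions with at least 10 tested genes, other than the cellulose-binding module, high medians of ELP over Glc were found for genes with the TonB box motif (1.41, with 3 of 11 genes higher in limma at an adjusted p under 0.05, against 17.3% of all genes), for RNA-dependent RNA polymerases, enzymes of RNA silencing (1.44, 6 of 11), for bromodomain proteins, which bind acetylated histones (1.36, 6 of 10), for caspase-like C14 peptidases (1.32, 7 of 13), for type B carboxylesterases (1.19, 7 of 17) and for the general substrate transporters that include sugar carriers (1.19, 5 of 10). Low medians were found for the propeptide of S53 peptidases (-0.53, 1 higher of 10) and for 2-oxoglutarate and iron dependent oxygenases (-0.45, 1 higher and 2 lower of 12). All these medians are on the log2(RPKM + 0.5) scale beside 0.60 over all genes. After rescaling none of the genes of the first 3 descriptions was higher, nor were more than 1 of the C14 peptidases, 1 of the carboxylesterases and 3 of the general substrate transporters. The high medians then were 0.55 to 0.80 and the low ones -1.12 and -0.98, beside -0.03 over all genes. The descriptions were chosen for their medians after these were seen, so they carry no test.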
